A study of Mus musculus and Oryctolagus cuniculus and Sus scrofa with 20 samples.

Results

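The members described here are 3961 small RNA read sequences (tags) of 25 to 32 nt that start with T, reach at least 2 RPM (reads per 1000000 reads of the library) in zygotene spermatocytes of the mouse, and lie under 0.2 RPM in both pachytene spermatocytes and round spermatids. They were picked from 541678 distinct tags of that length and first base in the zygotene library, of which 7240 passed the zygotene minimum after tRNA 5′ ends were removed. The members are thus 54.7% of the abundant tags (95% Clopper-Pearson interval 53.6 to 55.9%) and hold 237701 reads, or 7.91% of the T-starting reads of 25 to 32 nt in zygotene. The other 3279 abundant tags reached 0.2 RPM in at least 1 of the later libraries and are called kept tags below. Length, first base and the levels in zygotene, pachytene and round spermatids chose the members, so those values are given as a description.

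The study sequenced total RNA from wild type C57BL/6 mice: cultured spermatogonia stem cells (SSC), pre-leptotene and leptotene spermatocytes of postnatal day 9, zygotene spermatocytes of day 13, pachytene spermatocytes and round spermatids of day 25, and mature sperm. A second set of cultures came from a day 15 C57BL/6 x DBA2 F1 male carrying an actin-EGFP transgene and grown on MEF feeder cells: miR-741 knock-out SSC made with TALEN, miR-741 knock-out SSC made with CRISPR, both picked as single colonies after transfection, and the wild type SSC control. The targeted miRNA matched the labels: miR-741-3p, a miRNA of the X chromosome, had 3 reads in TALEN SSC and 5 in CRISPR SSC, against 80096 in control SSC. Each of the 10 groups is 1 library, so no value has a replicate, no p-value is given, and the intervals cover counting error only. Read totals were 12247017 to 25908109 in the 7 stage libraries, but 843664 in TALEN SSC, 597732 in CRISPR SSC and 1449449 in control SSC. A tag at 2 RPM would thus lie below the floor of 3 reads in each of those 3 libraries. The Sertoli or gonadal miRNA list, of which 3 of 3 members were detected in zygotene, was at 3444 reads per 1000000 miRNA reads in zygotene, against 548 in pachytene, 156 in leptotene and 2.92 in SSC. In SSC 1 of the 3 was not detected. The part of this list in the results was not tested. The feeder, stromal or peritubular list was at 19289 per 1000000 miRNA reads in SSC and 16374 in control SSC, against 2808 in zygotene.

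piRNAs are small RNAs bound by PIWI proteins of the germline and silence transposons. In the mouse, those made before the pachytene stage are bound by MILI and, in fetal germ cells, also by MIWI2, and come from transposons and from the 3′ untranslated regions (3′ UTRs) of messenger RNAs. At pachytene the transcription factor A-MYB switches on a different set of loci whose products dominate the later testis. A primary piRNA usually begins with U, read here as T. In the ping-pong cycle the slicing of a target leaves a partner whose 5′ end lies 10 nt away on the other strand, so a partner of a T-starting piRNA carries A at the tenth base.

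The following tags are shown because they come from the 3 places with most members, and their capitals mark the first and the tenth base. The first 3 match the sense strand of the 3′ UTR of D10Wsu102e, the next 3 the sense strand of the 3′ UTR of Tmem245, and the last 3 the Elk4 strand of the Elk4 and Mfsd4a locus. Coordinates are those of GENCODE vM21 on GRCm38, reached through the matched transcript.
D10Wsu102e, chr10:83390505-83390534, plus strand: TaattgtacAgatcagctgatgaaaaaggc
D10Wsu102e, chr10:83380222-83380248, plus strand: TgtcagagaAggccatagaatagaata
D10Wsu102e, chr10:83417414-83417443, plus strand: TcaaaagtcCattctctctgctctagagtc
Tmem245, chr4:56868994-56869022, minus strand: TttggctgcCaggattagataataaatcc
Tmem245, chr4:56872621-56872646, minus strand: TaaactccgGgaagcctaggtattct
Tmem245, chr4:56872654-56872681, minus strand: TatctatccAatgagagcacttggcaca
Elk4, chr1:132025485-132025512, plus strand: TgaaattctGaaaacataaaactatttt
opposite Mfsd4a, chr1:132026866-132026892, plus strand: TataaactgAattccaaggctgtcatt
opposite Mfsd4a, chr1:132027423-132027449, plus strand: TgcctcggcAtccctggcactcttggc

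The first of these D10Wsu102e tags had 326 reads in SSC, 28 in pre-leptotene, 106 in leptotene, 207 in zygotene, then 4 in pachytene and 3 in round spermatids, with 0 in mature sperm. The first Tmem245 tag had 88 reads in SSC, 23 in pre-leptotene, 126 in leptotene, 234 in zygotene, 2 in pachytene and 0 in both round spermatids and mature sperm. The Elk4 tag had 174 reads in SSC, 29 in pre-leptotene, 152 in leptotene, 335 in zygotene, 2 in pachytene and 0 in both round spermatids and mature sperm. All 3 tags were thus present in SSC and through the early spermatocyte stages, with their lowest early read count in pre-leptotene. In the shallow cultures the Elk4 tag had 0 reads in TALEN SSC and CRISPR SSC, against 6 in control SSC, and the D10Wsu102e tag had 0 in TALEN SSC and CRISPR SSC, against 4 in control SSC.

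Like the tags just described, the members as a whole were lower in pre-leptotene than in SSC, leptotene or zygotene. Otherwise the members differed from these tags in the order of the libraries. Their summed level was 12659 RPM in SSC (95% Poisson interval 12610 to 12708) and 4710 in pre-leptotene (4673 to 4747), and it was higher at the next stages, with 8334 in leptotene and 15518 in zygotene. Pachytene had 235 (229 to 241) and round spermatids 53.7 (50.7 to 56.7), while mature sperm had 684. The kept tags summed to 39394 RPM in SSC and, over the stages from pre-leptotene, to 24692, 33212 (leptotene), 45948 (zygotene), 12719 (pachytene), 26014 (round spermatids) and 6375 (mature sperm). Among the knock-out experiment cultures the members summed to 5334 RPM in TALEN SSC (5179 to 5492), 3471 in CRISPR SSC (3324 to 3624) and 6088 in control SSC (5961 to 6216). Both knock-out lines lay below the control, beyond counting error, but each is 1 colony and 1 library, and the 2 wild type SSC cultures, SSC and control SSC, lay further apart than TALEN SSC and control SSC. The feeder list was at 5645 reads per 1000000 miRNA reads in TALEN SSC and 7481 in CRISPR SSC, against 16374 in control SSC, and its part in this difference was not tested. A single member that matches 2 genes had 414 reads in TALEN SSC, 9.2% of all member reads there, against 30 in CRISPR SSC and 44 in control SSC. It was picked out after its values were seen, and had 924 reads in SSC and 31 in zygotene.

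**Figure D1:**
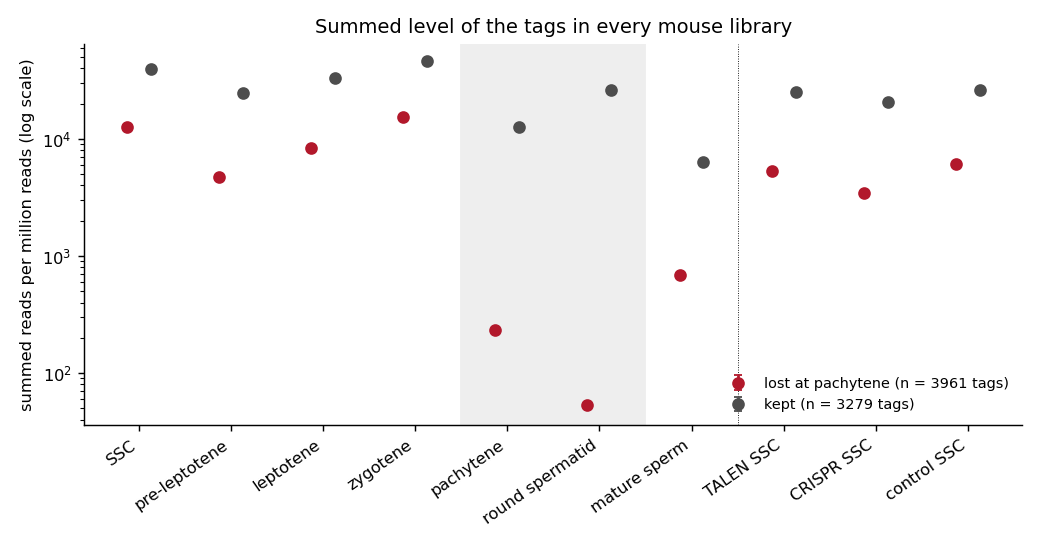
Summed RPM reads, on a log scale, of the 3961 tags lost at pachytene (red) and of the 3279 kept tags (grey) in each mouse library, with 95% Poisson bars that are mostly smaller than the points. Shading marks pachytene and round spermatids, where a low level was required; outside them the lost tags stand between 684 RPM in mature sperm and 15518 in zygotene.

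Nearly every member was seen outside zygotene. Of the 3961 members, 96.4% had a read in SSC, 73% in pre-leptotene, 95.3% in leptotene and 8.76% in mature sperm. The median member was at 1.48 RPM in SSC, 0.456 in pre-leptotene, 1.31 in leptotene and 2.94 in zygotene. The kept tags had medians of 3.89, 1.14, 2.69 and 4.77 RPM in the same order of libraries. Depth limited the knock-out experiment, where 23% of members had a read in TALEN SSC, 14.4% in CRISPR SSC and 38.1% in control SSC.

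Set against zygotene, a member was counted as changed where its level differed at least 4-fold from that in zygotene, with counts under 3 raised to 3. In leptotene 1132 members (28.6%) were at least 4-fold lower than in zygotene, against 23.4% of the 7240 abundant tags and 17.1% of the kept tags. In pre-leptotene 2781 members (70.2%) were lower, against 64.5% of the abundant tags and 57.6% of the kept tags. In SSC 1280 members (32.3%) were lower, against 26.9% of the abundant tags and 20.3% of the kept tags. The members' share of lower tags was above the background in each of these 3 libraries. Members, kept tags and abundant tags were all chosen by a minimum in zygotene. That choice favours a fall from zygotene and disfavours a rise in every comparison given here, so neither direction is an independent result. The opposite change was rare: 119 members (3%) were at least 4-fold higher in SSC (background 4.46%), 24 in pre-leptotene (background 0.442%) and 3 in leptotene (background 0.0414%). In the other cultures 49 members were at least 4-fold higher in TALEN SSC (background 2.35%), 39 in CRISPR SSC (1.75%) and 62 in control SSC (1.98%), and 9 were higher in mature sperm (0.456%). In mature sperm 3826 members (96.6%) were lower, near the background of 94.4%. In the shallow cultures only tags abundant enough to show a 4-fold fall were counted, and 48 of 57 such members were lower in TALEN SSC (background 67.8%), 17 of 19 in CRISPR SSC (71.9%) and 172 of 256 in control SSC (56%). All members were lower in pachytene and round spermatids through the choice itself, where the background was 90.1% and 95%, and for the same reason 0 were higher there, with backgrounds of 0.981% and 0.566%.

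Over the 5 libraries outside pachytene, round spermatids and the knock-out experiment, 2680 members (67.7%) had their highest level in zygotene and 916 (23.1%) in SSC. Leptotene held the highest level of 224 members, pre-leptotene of 109 and mature sperm of 32. Of the kept tags, 53.9% were highest in zygotene and 32.8% in SSC. The minimum was set in zygotene for both sets.

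The members just inside the zygotene minimum were 212 tags with 31 reads (2.02 RPM), and 236 tags with 30 reads (1.96 RPM) fell just outside. In pachytene 399 members stood at 4 reads (0.176 RPM), while 278 kept tags had 5 reads (0.219 RPM). In round spermatids 75 members stood at 4 reads (0.17 RPM) and 39 kept tags at 5 (0.212 RPM). A single read separates members from kept tags at this edge. At the other end, 1541 members had 0 reads in pachytene, 3307 had 0 in round spermatids and 1371 had 0 in both, where 3 reads, the one-sided 95% limit for a count of 0, are 0.132 RPM in pachytene and 0.127 in round spermatids.

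How much was lost depends on the scale, since the libraries differ in make-up. Reads of 25 to 32 nt were 76.9% of all reads in pachytene, against 33.7% in zygotene, and miRNA reads were 1.38% in pachytene, against 28.9% in zygotene. Per 1000000 T-starting reads of 25 to 32 nt, the members summed to 349 in pachytene, against 79091 in zygotene. Per 1000000 miRNA reads they summed to 17048 in pachytene, against 53620 in zygotene, and to 2569 in round spermatids. The sum was lower in pachytene than in zygotene on all 3 scales. Against pre-leptotene the order turned: per 1000000 miRNA reads the members were at 17048 in pachytene and 10189 in pre-leptotene, while by total reads they were lower in pachytene. With 1 library a stage no scale can be checked. Fewer cells of a type and less RNA per cell cannot be told apart in these samples.

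A tag counts only reads of exactly its own 3′ end. When reads of 25 to 32 nt with the same first 20 nt were added together, 2127 members (53.7%) stayed under 0.2 RPM in both later libraries. Of the others, 396 members had a 5′ end that reached 2 RPM in pachytene and 208 in round spermatids. For these the exact tag was under 0.2 RPM while other tags with the same start were present.

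The members' lengths centred on those known for MILI-bound piRNAs, within the limits set by the choice. Their median length was 27 nt (mean 27.6, SD 1.6 over tags), and 67% were of 26 to 28 nt (65.5 to 68.4%), against 58.3% of kept tags (56.6 to 60%), whose median was 28 nt. The commonest length was 27 nt, with 1053 members (26.6%), followed by 28 nt with 873 (22%) and 26 nt with 727 (18.4%). All T-starting tags of the zygotene library peaked at 27 nt as well, with 23.3%, beside 19.2% at 28 nt and 18.7% at 26 nt. The peak is thus shared with the library from which the members were drawn. Only 2.2% were of 32 nt. In the pachytene library the T-starting tags were spread more widely, with 13.9% at 27 nt and 16.1% at 30 nt, and in round spermatids 25.8% were at 30 nt. Tags of 30 nt were 7.2% of members and 9.61% of kept tags.

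**Figure D2:**
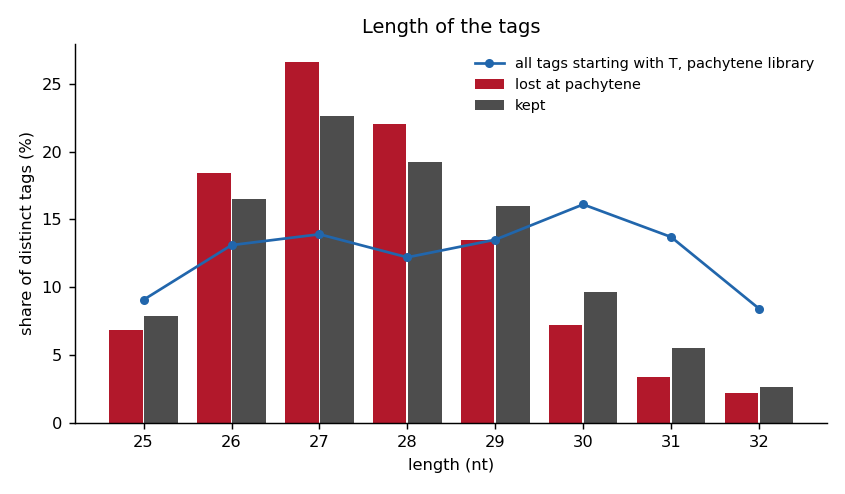
Share of distinct tags by length in nt for the tags lost at pachytene (red bars), the kept tags (grey bars) and all T-starting tags of the pachytene library (blue line). The lost tags peak at 27 nt with 26.6%, where the pachytene library has 13.9%. All T-starting tags of the zygotene library, not drawn, have 23.3% there.

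At the tenth base 37.3% of members carried A (35.8 to 38.9%), a base that the choice did not use. The share was 28.3% at position 9 and 29.6% at position 11, so the tenth position stood above its neighbours beyond counting error. Kept tags had A at position 10 in 35.8% (34.2 to 37.5%), an interval that overlaps that of the members. All T-starting tags of the zygotene library had it in 31.1%, and those of the pachytene library in 28.4%. Position 5 carried A more often still, in 42.7% of members and 44% of kept tags, so a raised share of A is not limited to the tenth base. Among members, A at position 10 was found in 35.7% of those that match 1 gene, 39.7% of those that match 2 to 10 genes and 42.7% of those that match 11 or more. Members without a transcript match had it in 36.7%. In kept tags the same 3 classes had 32.2%, 44.9% and 48.8%, so the rise with the number of genes is not particular to the members.

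**Figure D3:**
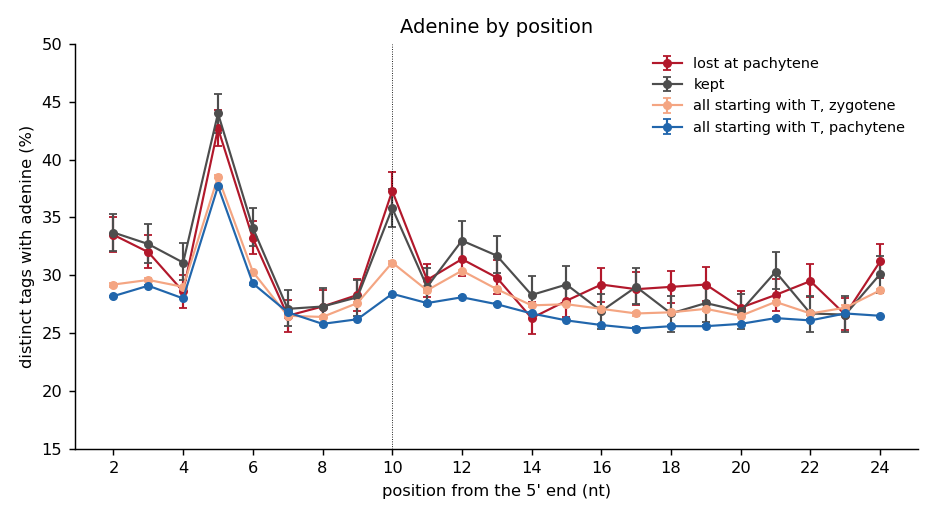
Share of distinct tags with adenine at each position from the 5′ end, with 95% Clopper-Pearson bars, for the tags lost at pachytene (red), the kept tags (grey) and all T-starting tags of 25 to 32 nt in the zygotene (orange) and pachytene (blue) libraries. The lost tags rise to 37.3% at position 10 (dotted line), between 28.3% at position 9 and 29.6% at position 11.

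The starts of the members were spread widely. Grouped by their first 18 nt, they formed 3173 5′ groups, and 1288 members (32.5%) shared a group with another member, against 46% of kept tags. Most groups were small: 2673 held 1 member, 370 held 2 and the largest held 17. In 386 of the 500 groups of 2 or more, the tags differed only in where they ended. A kept tag stood in the same group in 464 cases, covering 823 members (20.8%), and the mean length in those groups was 27.8 nt for members and 27.9 nt for kept tags.

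A group in the Elk4 3′ UTR shows such a ladder, with the same first base and 3 ends. The 3 tags are printed to show where they end.
27 nt, chr1:132025485-132025511: TgaaattctGaaaacataaaactattt
28 nt, chr1:132025485-132025512: TgaaattctGaaaacataaaactatttt
29 nt, chr1:132025485-132025513: TgaaattctGaaaacataaaactattttt
In zygotene they had 110, 335 and 162 reads in order of length, in leptotene 37, 152 and 51, and in SSC 36, 174 and 93. The 28-nt tag was the most abundant of the 3 in each of these libraries. In pachytene they had 1, 2 and 1 reads.

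A Tmem245 group holds both kinds of tag, with a start at chr4:56872420 on the minus strand, and shows how near the edge some members lie.
26 nt, member: TtttatatcCgagacctagctatagc
27 nt, kept: TtttatatcCgagacctagctatagct
28 nt, member: TtttatatcCgagacctagctatagctt
The 2 members had 4 and 3 reads in pachytene and 101 and 204 in zygotene, and the kept tag had 6 in pachytene and 309 in zygotene. Each of the 3 tags was thus lower in pachytene than in zygotene, and the kept one passed 0.2 RPM through its 6 reads. None had a read in round spermatids.

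The leading tags of the groups with most reads and most members matched several genes or no transcript, with 1 exception. The group with most zygotene reads held 14 members and 1099 reads (71.7 RPM), and its most abundant tag had no exact match in a transcript. Next came a group of 7 members with 1045 reads, also without a match, and the group of 17 members, the largest, with 868 reads, whose most abundant tag matched transcripts of 70 genes, 36 in sense and 34 in antisense. The group of 11 members with 831 reads matched 28 genes, 15 in sense and 13 in antisense. A group of 14 members with 776 reads matched 63 genes, 48 in sense. A group of 4 members with 821 reads had no match, and in a group of 12 members with 650 reads the most abundant tag matched only the unclassified gene model Gm37204. Most of these leading tags had fewer reads in pre-leptotene than in SSC, leptotene or zygotene, except that of the 4-member group, with 42 reads in SSC and 69 in pre-leptotene. The leader of the 14-member group with most reads had 722 reads in SSC, 86 in pre-leptotene, 272 in leptotene and 223 in zygotene, and the Gm37204 tag 229, 0, 29 and 136 in the same libraries. The leaders of the groups with 1099, 868 and 831 reads hold words of the B1 repeat, which is described next.

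Among the 12-nt words found in the largest numbers of 5′ groups were words of short interspersed repeats (SINEs). The word GAGTTCAAATCC and the word TTCCGAAGGTCC, which lie in the mouse B2 SINE, were in 29 and 15 of the 3173 groups, and 46 and 26 members held them. The words TGAGTTCGAGGC and CCAGGACAGCCA, which lie in the B1 SINE, were in 20 and 15 groups, with 39 and 31 members. The kept tags held the 4 words in 11, 6, 10 and 7 of 2282 groups. Members with GAGTTCAAATCC summed to 567 RPM in SSC, 196 in pre-leptotene, 329 in leptotene, 297 in zygotene, 2.72 in pachytene and 0.212 in round spermatids, and to 185 in TALEN SSC, 182 in CRISPR SSC and 443 in control SSC. Members with TGAGTTCGAGGC summed to 257 in SSC, 28 in pre-leptotene, 94.4 in leptotene and 163 in zygotene. Both were lower in pre-leptotene than in SSC. So was the second B1 word, whose members summed to 142 RPM in SSC and 25.5 in pre-leptotene. Members with a further word that overlaps it, 50 in number, summed to 206 RPM in SSC and 77.1 in pre-leptotene. The size of the fall thus differed among words, and no contrast between B1 and B2 is drawn from it.

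The 3 members highest in leptotene were of 3 kinds. The highest, which holds both B2 words and matches transcripts of 10 genes, had 1807 reads in SSC, 559 in pre-leptotene, 685 in leptotene and 445 in zygotene, and it was also the highest member in SSC. The second matches 14 genes, 13 of them genes for histone H2B, a core protein of the nucleosome, and had 318 reads in SSC, 1223 in pre-leptotene, 517 in leptotene and 342 in zygotene. The third matches 165 copies of an annotated small nuclear RNA and had 46, 444, 453 and 281 reads. The second highest member in SSC matches 23 annotated small nuclear RNA genes and had 1327 reads in SSC, against 47 in zygotene. The third highest in SSC, which holds a B2 word and matches 80 genes, had 1252 reads in SSC, against 103 in zygotene. The rule thus also takes in sequences of other annotated small RNAs.

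By exact match to spliced transcripts, 2698 members (68.1%) had a place and 1263 had none. Members in exactly 1 gene numbered 1738 (43.9%), of which 1592 lay in sense and 146 in antisense. Another 499 matched 2 to 10 genes and 461 (11.6%) matched 11 or more. Among kept tags 40.4% matched 1 gene and 16.8% matched 11 or more. Members thus matched 11 or more genes less often (95% interval 10.7 to 12.7% for members and 15.5 to 18.1% for kept tags). No match was found for 31.9% of members and 23.9% of kept tags. Copies outside spliced transcripts were not searched, so which set lies more often in widely copied sequence is not known. Annotated small or ribosomal RNA accounted for 145 members (3.66%) and 7.9% of kept tags. In mature sperm, the epithelial miRNA list was at 13014 reads per 1000000 miRNA reads, against 341 in zygotene, and the blood list at 1348, against 5.19, and their part in the sperm values was not tested. The 145 members held 299.8 of the 684 RPM that the members had in mature sperm, the unmatched members another 315, and the 1568 members in sense to 1 gene outside such RNAs 10.9. Among these RNAs was mt-Rnr2, the mitochondrial large ribosomal RNA, whose 7 members had 3498 reads in mature sperm (135 RPM) and 275 in zygotene (18 RPM). They had 49 reads in SSC, 1 in round spermatids and 0 in pre-leptotene, leptotene and pachytene. The 8 members in the coding parts of mt-Atp8 and mt-Co1, mitochondrial genes for subunits of ATP synthase and cytochrome c oxidase, had 605 reads in zygotene, with 55 in SSC, 5 in pre-leptotene, 18 in leptotene, 10 in pachytene and 59 in mature sperm. A further kind of start was that of miRNAs: 60 members (1.51%, 1.16 to 1.95%) began with the first 18 nt of a RefSeq mature miRNA, against 2.44% of kept tags, and 3 of them with that of miR-741. Without the 60, the share of members with A at position 10 was 37.4%.

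These 1568 members summed to 4094 RPM in SSC, 1183 in pre-leptotene, 2935 in leptotene, 6012 in zygotene, 94.7 in pachytene and 23.4 in round spermatids. In the knock-out experiment they summed to 1284 in TALEN SSC, 649 in CRISPR SSC and 1852 in control SSC. The 419 members of 11 or more genes outside annotated small RNAs summed to 2218 in SSC, 780.1 in pre-leptotene, 1152 in leptotene and 1894 in zygotene, and to 512 in TALEN SSC, 363 in CRISPR SSC and 878 in control SSC. By sum, the members of 11 or more genes were thus higher in SSC than in zygotene, while the single-gene members were lower. By median, both classes were lower in SSC than in zygotene. The medians were 2.66 RPM in SSC and 3.33 in zygotene for the members of 11 or more genes. For the single-gene members they were 1.43 and 2.94.

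Members in genes were mostly in 3′ UTRs. Of 1439 members in sense to 1 protein-coding gene, 1174 (81.6%, 79.5 to 83.6%) lay in the 3′ UTR, 219 (15.2%) in the coding part and 36 (2.5%) in the 5′ UTR. The 3′ UTR made up 65.2% of the length of the host transcripts, the coding part 30.3% and the 5′ UTR 4.49%. Kept tags had 84.8% in the 3′ UTR (82.5 to 86.9%), an interval that overlaps that of the members. In the transcript, the base just after the members' 3′ end was T in 28.8% (26.6 to 31.1%), against 24.2 to 27.5% at the next 7 bases. That interval overlaps those of the next 7 bases except the third base after the end, at 24.2% (22.2 to 26.4%). For kept tags the share was 31.9% (29.3 to 34.6%), above 25.7% at the next base (23.2 to 28.2%) and 21.8% at the third (19.5 to 24.2%), while their intervals at the sixth and eighth bases overlap it.

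The 1592 sense members came from 605 host genes, of which 342 gave 1 member and 164 gave 3 or more, holding 1052 members (66.1%). Joined along the genome where 5′ ends lay within 10 kb on 1 strand, the 1738 single-gene members formed 675 loci, and 169 loci of 3 or more held 64.4% of them. The 19 hosts with at least 10 members were D10Wsu102e (84 members), Tmem245 (61), Gabpb2 (29), Abl2 (22), Elk4 (20), Cbx5 (19), AU020206, Rab11fip4 and Trim71 (18 each), Cmtm4 and Gm4631 (17 each), Fbxl18 (16), Rcan3 (15), Fth1 (14), Fbxo41, Foxo3 and Il17rd (13 each), Luzp1 (12) and Lpp (10). AU020206 is annotated as a lincRNA and the others as protein-coding.

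D10Wsu102e has the locus with most members. Its transcript is annotated with 123179 nt, of which 122586 nt are 3′ UTR, and all its 84 members lay in that part, with 5′ ends from 1183 to 121231 nt. The 75 that join into 1 locus span chr10:83366509-83455760 on the plus strand. They summed to 218 RPM in SSC, 43.9 in pre-leptotene, 150.4 in leptotene, 304 in zygotene, 2.94 in pachytene and 0.637 in round spermatids. In the knock-out experiment they had 47 reads in TALEN SSC, 11 in CRISPR SSC and 95 in control SSC, libraries of unequal depth. By RPM, TALEN SSC was at 55.7 (40.9 to 74.1) and control SSC at 65.5 (53 to 80.1), and these intervals overlap. CRISPR SSC was at 18.4 RPM (9.19 to 32.9), below the control.

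Tmem245, a gene for a transmembrane protein, had 61 members, all in the 3′ UTR and all within 8.04 kb at chr4:56867795-56875833 on the minus strand. They summed to 138 RPM in SSC, 81.9 in pre-leptotene, 212 in leptotene, 303 in zygotene, 3.64 in pachytene and 0.552 in round spermatids. Unlike the D10Wsu102e locus, whose sum in SSC was above that in leptotene, the Tmem245 locus was higher in leptotene than in SSC, with counting intervals of 204 to 220.0 RPM in leptotene and 133 to 143 RPM in SSC. Per 1000000 miRNA reads that difference was not kept, with 539 in leptotene (518 to 560) and 547 in SSC (527 to 568).

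The third locus lies on the plus strand at chr1:132014590-132032474 and had 57 members. Of these, 20 match the sense strand of Elk4, a gene for an ETS family transcription factor, and 37 match only the antisense strand of Mfsd4a, a neighbouring gene annotated on the minus strand. The 37 lie between 132026862 and 132028998, inside the Elk4 gene, which is annotated from 132007607 to 132032612 on the plus strand. They therefore lie on the strand of Elk4, within its bounds, but in no spliced Elk4 transcript, and they are 37 of the 146 antisense members. The 37 summed to 223 RPM in SSC, 27 in pre-leptotene, 87.1 in leptotene and 166 in zygotene. The 20 Elk4 members summed to 54.3 in SSC, 11.7 in pre-leptotene, 53.4 in leptotene and 105 in zygotene. SSC was thus above zygotene for the 37 and below zygotene for the 20.

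**Figure D4:**
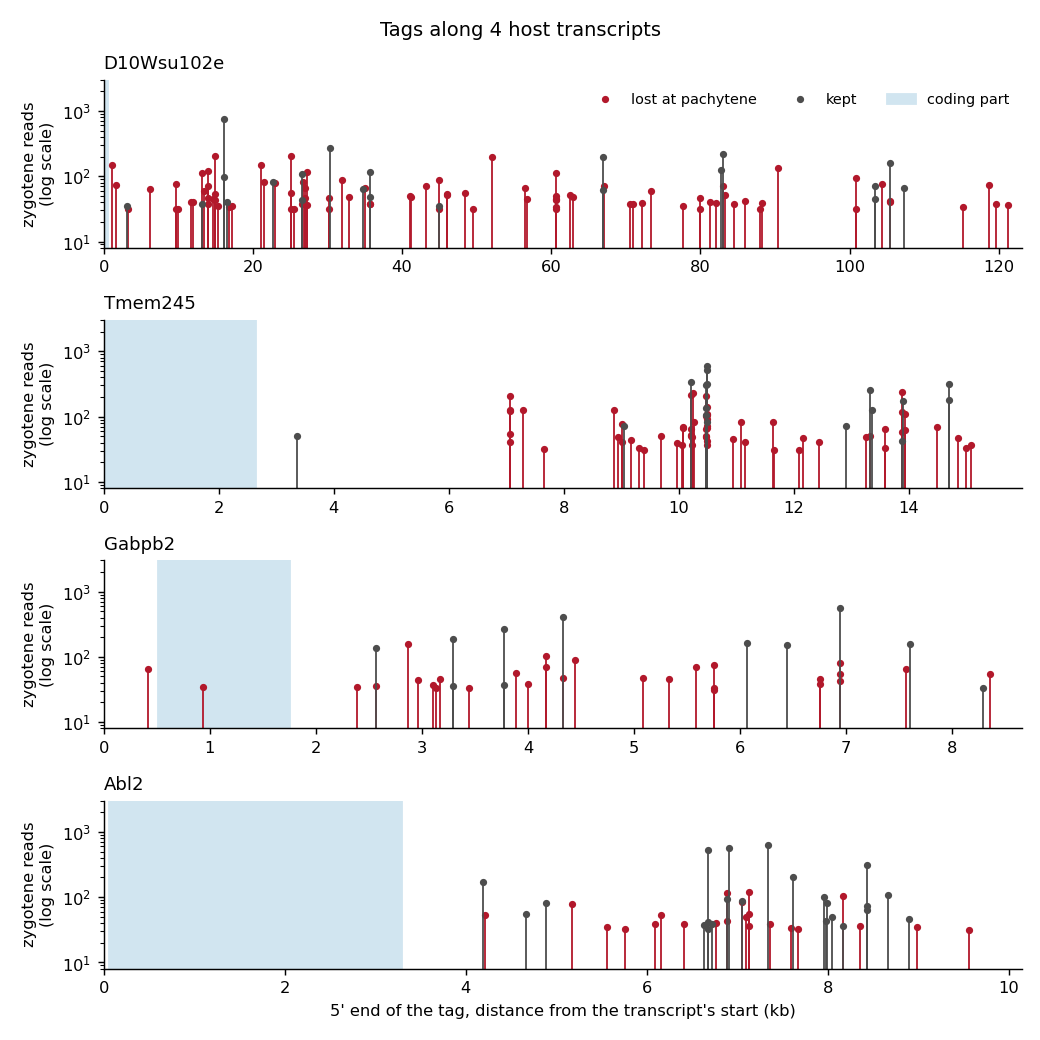
Position of each tag's 5′ end along the spliced transcript, in kb from its start, against its zygotene reads on a log scale, for the 4 hosts with most members. Red marks tags lost at pachytene, grey kept tags and light blue the coding part; in Tmem245 all 61 lost tags lie between 7071 and 15084 nt, after the coding part that ends at 2654 nt.

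In most of the other hosts the members also lay after the coding part. In Gabpb2, a gene for a subunit of the GA-binding transcription factor, 27 of 29 members were in the 3′ UTR. All members of Abl2, a tyrosine kinase, Cbx5, the heterochromatin protein HP1 alpha, Trim71, an RNA-binding ubiquitin ligase of stem cells, Foxo3, a forkhead transcription factor, and Il17rd, a receptor-like regulator of growth factor signalling, were in the 3′ UTR. Rab11fip4, a gene for an effector of a Rab GTPase, had 12 of 18 in the 3′ UTR and 6 in the coding part, and Elk4 had 12 of 20 in the 3′ UTR and 4 in the coding part. Fth1, the heavy chain of ferritin, had 7 of 14 in the 5′ UTR, 3 in the coding part and 1 in the 3′ UTR, and the other members there lie in different parts of different transcripts. It was the only coding host of the 19 with fewer members in the 3′ UTR than elsewhere. The share of members with A at position 10 ran from 0 in Cmtm4 to 54.5% in Abl2, over 17 and 22 members.

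All reads of 25 to 32 nt in sense to these hosts, members or not, were then counted, since they include tags that the choice did not use. Over the 19 hosts they summed to 16793 RPM in SSC, 2071 in pre-leptotene, 5430 in leptotene, 10181 in zygotene, 901 in pachytene and 346 in round spermatids, and mature sperm had 42.9. In zygotene 83.9% (D10Wsu102e) to 93.2% (Cmtm4) of them started with T. Each host is therefore a source of T-starting reads in general and not of the members alone. Because hosts were ranked by members lost at pachytene, their fall at that stage is no independent result.

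D10Wsu102e reads were 4515 RPM in SSC, 341 in pre-leptotene, 1047 in leptotene and 2184 in zygotene, then 488 in pachytene and 100.2 in round spermatids. Its opposite strand gave 9589 reads in SSC, 4012 in zygotene and 2246 in pachytene, beside 91657, 33458 and 11130 in sense. Trim71 reads were 697 in SSC, 36.9 in pre-leptotene, 164 in leptotene and 354 in zygotene, then 6.01 in pachytene, with 0 reads in round spermatids (95% Poisson interval up to 0.157 RPM). Gm4631 reads were 126 in SSC, 49.1 in pre-leptotene, 183 in leptotene and 445 in zygotene, then 11.8 in pachytene. In SSC, Gm4631 was at 0.282 of its zygotene level, the lowest of the 19, and the median host at 1.77.

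Fth1 reads took another order among the early stages, with 950.0 RPM in SSC, 498 in pre-leptotene, 443 in leptotene, 309 in zygotene, 26 in pachytene and 3.1 in round spermatids. It was the only host of the 19 to be higher in leptotene than in zygotene and the only host higher in pre-leptotene than in leptotene; per miRNA reads, leptotene was still above zygotene (1127 per 1000000 in leptotene, 1067 in zygotene) but pre-leptotene (1078) was below leptotene. SSC was above zygotene in 16 of 19 hosts, the exceptions being Tmem245, AU020206 and Gm4631, and in 18 of 19 per miRNA reads. The highest ratio of SSC to zygotene was 3.08, in Fth1.

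**Figure D5:**
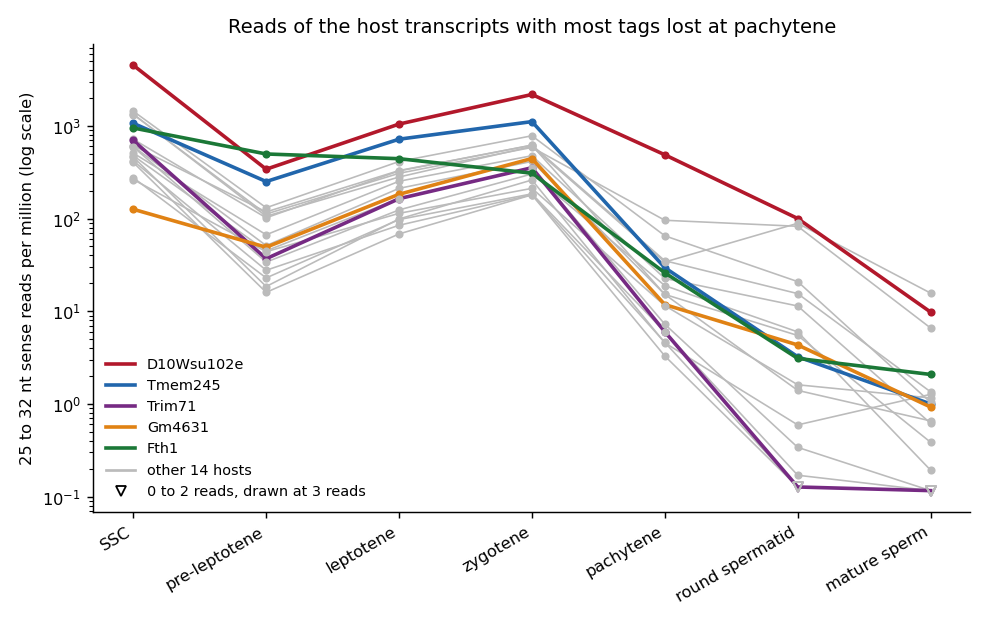
Reads of 25 to 32 nt in sense to each of the 19 hosts with at least 10 members, in RPM on a log scale, in the 7 stage libraries; open triangles mark 0 to 2 reads, drawn at the level of 3 reads. Fth1 alone declines from SSC through zygotene, while the other 18 are lowest in pre-leptotene among the 4 early libraries.

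The hosts fell unequally at pachytene. By total reads pachytene was below zygotene in all 19, with a ratio of zygotene to pachytene of 4.47 in D10Wsu102e to 59 in Trim71 and a median of 27.3. Per miRNA reads the direction was mixed: 8 of the 19 were higher in pachytene, among them D10Wsu102e at 35433 per 1000000 miRNA reads in pachytene, against 7547 in zygotene, and the median ratio was 1.3. Trim71 was still lower in pachytene on that scale, at 436 per 1000000 miRNA reads, against 1225 in zygotene. Gabpb2 was the 1 host above its pachytene level in round spermatids, at 89 RPM, against 34 in pachytene.

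The mean length of host reads was greater in SSC than in zygotene for all 19 hosts and greater in control SSC than in zygotene for 18. For Tmem245 the mean was 28.2 nt in SSC, 27.9 in pre-leptotene, 27.7 in leptotene and 27.5 in zygotene. For Trim71 it was 27.9 nt in SSC, 27.1 in pre-leptotene, 27.2 in leptotene and 27.2 in zygotene. In the knock-out experiment the hosts summed to 7383 RPM in TALEN SSC, 3709 in CRISPR SSC and 7844 in control SSC. CRISPR SSC was below control SSC in all 19 hosts, and TALEN SSC was above it in 6. For Fth1 the levels were 914 RPM in TALEN SSC (850.5 to 981), 763 in CRISPR SSC (694 to 836) and 827 in control SSC (780.4 to 875), and the intervals of both lines overlap that of the control.

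Partners on the opposite strand were looked for in the zygotene library. By the first 10 nt alone, 2204 members (55.6%) had a tag whose start is their reverse complement, but 67.6% had one at 9 nt and 27.4% at 11 nt, so 10 nt is too short to tell partners from other tags. Partners of at least 2 RPM were found for 456 members (11.5%) at 10 nt, 6.59% at 9 nt and 2.78% at 11 nt. With 20 nt of the antisense strand of the matched transcript required, 634 of 2685 members (23.6%) had a partner at 10 nt, against 13.2% at 9 nt and 13.4% at 11 nt. Kept tags had such a partner in 32.3%, against 20.6% at 9 nt and 19.6% at 11 nt.

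Partners were found most often for members that match many genes. Members that match 11 or more genes had a 10-nt partner in 74.3%, against 44.4% at both 9 and 11 nt. Members of 1 gene had one in 5.48% (95 of 1732), against 2.83% at 9 nt and 2.54% at 11 nt. The share was thus higher for members of 11 or more genes at 9 and 11 nt as well. The difference between the classes is not particular to 10 nt. For 12 single-gene members, a partner of at most 30 nt matched that same gene and no other. The 2 such pairs with most reads in the rarer tag are shown, with the 10 nt that the tags of a pair share as reverse complements in capitals.
A630089N07Rik member, chr16:98062993-98063019, minus strand: TAAGAGAACAcaggctactatgcccag
its partner, chr16:98063010-98063038, plus strand: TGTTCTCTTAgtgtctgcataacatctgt
D10Wsu102e antisense member, chr10:83432930-83432958, minus strand: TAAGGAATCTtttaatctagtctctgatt
its partner, chr10:83432949-83432976, plus strand: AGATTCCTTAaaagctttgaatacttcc
In zygotene the A630089N07Rik tags had 44 reads (member) and 19 (partner), and the D10Wsu102e tags 35 (member) and 14 (partner). In pachytene these 4 tags had 1, 0, 2 and 1 reads. In the first pair both tags start with T and carry A at position 10. In the second the partner carries the A and the member does not. Every member starts with T by the choice, so the tenth base of any such partner is A by definition. A member likewise carries A there whenever its partner starts with T, so neither is an independent result.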

How the data were processed

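The authors deposited, for each library, distinct read sequences with raw read counts, not normalised. Libraries followed an Illumina small RNA protocol on an Illumina HiSeq, per the labels' protocols; trimming is not given in the sources used here. The submitters' processing notes name Bowtie and GRCm38. Levels (RPM) are reads of exactly a tag per 1000000 reads of its library; miRNA reads are reads of 18 to 26 nt that share the first 18 nt of a RefSeq mature miRNA. tRNA 5′ ends are tags with 12 nt of 1 of 25 tRNA prefixes of 18 nt, written from knowledge of the field, within their first 20 nt; 21 were removed from the members. A genome was not used here: tags were matched whole to GENCODE vM21 spliced transcripts on both strands, so introns and intergenic sequence were not searched, and the design's genome match was replaced by this. 28S rRNA is only partly covered by the annotated RNAs used, so some rRNA fragments may remain. 6 of the members hold the end of a sequencing adapter.

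Members and lists were chosen with earlier results of these data known. Named are the leading tags of the 5 groups with most reads and most members, the 3 members highest in leptotene and in SSC, and the 3 loci with most members; sequences are printed only for tags that match 1 gene. Hosts were named at 10 members, a rule set after their values were seen, as were the 12-nt words. Intervals are 95% exact Poisson or Clopper-Pearson. Reads without molecular identifiers are not independent molecules. The search for members, groups, partners and transcript places was tested on simulated lists. Python 3.11.15, pandas 2.3.3, numpy 2.4.6 and SciPy 1.17.1 were used.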

Additional observations from a re-analysis of the deposited data

How the results depend on the processing

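The number of members, 3961, was 732 at a zygotene minimum of 5 RPM and 12331 at 1. It was 1371 with 0 reads required in both later libraries. Per miRNA reads it was the same 1371, because a single read in either later library exceeds the limit on that scale. It was 2197 per reads of 17 to 24 nt and 2127 with later levels taken by the first 20 nt. The other 6 settings tried gave 2925 to 5389. The share with A at position 10 was 35.6% with 1 tag per 5′ group and 36.5 to 38.8% under the other 5 settings. Among those 5, the setting of 0 reads and that per miRNA reads are the same set, at 36.5%. The median length was 27 nt under its 3 settings. At a fold of 2, members lower than in zygotene numbered 2142 in SSC, 2412 in leptotene, 296 in TALEN SSC, 133 in CRISPR SSC and 840 in control SSC; by the first 20 nt they numbered 733 in leptotene, 613 in TALEN SSC, 537 in CRISPR SSC and 872 in control SSC, where more tags reach the depth needed. Members in a 5′ group of 2 or more were 30.9% by the first 22 nt and 43.6% with starts within 5 nt. A 10-nt partner was found for 634 members by 20 nt of the antisense strand and 456 at 2 RPM, both chosen after seeing the data. Exactly 1 gene was matched by 1738 of the 2698 members with a transcript. Loci of 3 or more held 49.7% of placed members within 1 kb and 67.5% within 50 kb. The causes were not tested. The planned genome match was not run. No paired analysis was possible because each group has 1 library.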

Other observations

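By their sum, members in histone messages stood apart from the members as a whole in their stage course. The 11 members that match only histone genes summed to 97.5 RPM in SSC, 192 in pre-leptotene, 98.8 in leptotene and 57.1 in zygotene, and to 1.1 in pachytene and 0.0425 in round spermatids. All 11 were detected in each of the 4 early libraries. Their sum was thus highest in pre-leptotene, the stage in which the DNA is copied before meiosis. The sum of all members was lowest there among these 4 libraries. The median of the 11 was 8.12 RPM in pre-leptotene and 6.06 in SSC, but single tags differed. A Hist1h2bb member had 622 reads in pre-leptotene, against 123 in SSC and 135 in zygotene. A Hist1h2bg member went the other way, with 12 reads in pre-leptotene, 90 in SSC and 126 in zygotene. Replication-dependent histone messages are made during DNA copying; whether these tags are piRNAs or breakdown products was not tested. In the knock-out experiment they had 30.8 RPM in TALEN SSC (26 reads), 35.1 in CRISPR SSC (21) and 40.7 in control SSC (59).

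Some starts recurred among the members. The start TGAGA was found in 233 members (5.88%, 5.17 to 6.66%), in 4.54% of kept tags, in 2.95% of all T-starting tags of zygotene and in 1.93% of those of pachytene. The start TAAGA was found in 2.78% of members (2.29 to 3.34%), 2.2% of kept tags (1.72 to 2.76%) and 1.27% of all T-starting tags of zygotene. For TGAGA the interval of the kept tags was 3.86 to 5.31%. For both starts the intervals of members and kept tags overlap. These starts include A at position 5, where the members' share of A was 42.7%.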
